A study of Mus musculus with 12 samples.

Results

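The 10 genes described here, Msln, Upk3b, Upk1b, Lrrn4, Muc16, Bnc1, Krt19, Gpm6a, Wt1 and Tbx18, are markers of mesothelium and epicardium, and were taken by gene name from a table of 53465 genes. All 10 were found in the table, and all 10 passed the filter on low counts that kept 16101 genes for testing. They were chosen by name as markers, with their levels across these 12 libraries already known, so their levels and changes are given as a description, without a test.

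The study sequenced mRNA of mouse hearts in 4 groups of 3 libraries. A17fl/fl mice carry floxed Adam17 alleles on a C57BL/6J background and have no Cre. A17α-MHCKO mice carry the same floxed alleles with Cre under the α-MHC promoter, which is active in cardiomyocytes, so that Adam17 is deleted in those cells and not by design in any other cell of the heart. Littermates of both genotypes, males of 8 weeks at the start, received 4 intraperitoneal injections of either normal saline (NS) or doxorubicin (DOX). The dose of doxorubicin was 5 mg/kg each time, 20 mg/kg in all. Injections were weekly, the last on day 21, and by the study's methods the mice were killed 4 weeks after it. The tissue is labelled as heart, and the study's text describes left ventricle. The labels do not say how the tissue was cut or whether the surface of the heart was kept whole. They list each library as a separate sample, and any p-value below measures the spread between these samples.

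The mesothelium is the single layer of flat epithelial cells that lines the body cavities, and the part of it that covers the heart is the outer layer of the epicardium. Its cells carry keratins and surface glycoproteins, secrete a lubricating film, and in the embryo give rise to fibroblasts and mural cells of the heart by epithelial-mesenchymal transition. In the adult heart the layer is thin and holds a small share of the tissue, and WT1 and TBX18 are transcription factors commonly used to mark its embryonic form.

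By role, 4 of the genes encode proteins of the cell surface: Msln encodes mesothelin, a lipid-anchored surface protein, Muc16 a very large mucin that binds mesothelin, and Upk3b and Upk1b uroplakins, membrane proteins named for the urothelium. Lrrn4 encodes a membrane protein with leucine-rich repeats, and Gpm6a a membrane glycoprotein best known from neurons. Krt19 encodes a keratin of simple epithelia. Bnc1 encodes basonuclin 1, a zinc finger protein, and Wt1 and Tbx18 encode the 2 transcription factors named above.

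In GENCODE M21, on build GRCm38, all 10 are protein-coding genes. Msln lies on chromosome 17 at 25748613 to 25754378, Upk3b on chromosome 5 at 136038496 to 136046487, and Upk1b on chromosome 16 at 38773184 to 38800328. Wt1 (105126529 to 105173616) and Lrrn4 (132868305 to 132880891) are both on chromosome 2, and Muc16 (18495455 to 18674530) and Tbx18 (87702800 to 87731260) are both on chromosome 9. Krt19 lies on chromosome 11 at 100140810 to 100148665, Bnc1 on chromosome 7 at 81966672 to 81992292, and Gpm6a on chromosome 8 at 54954843 to 55060871. The submitters' notes name GRCm39 for the counts, so these positions serve to place the genes and were not used to count.

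RefSeq promoters on GRCm38.p6, from 250 bases before to 50 bases after a start of transcription, were at hand for 6 of the 10 genes: Upk3b, Lrrn4, Muc16, Bnc1, Tbx18 and Gpm6a, the last with 2 starts. They are shown because several of these genes rose and fell together from library to library. The letters GGAATG, the core of the motif bound by TEAD factors, were found on either strand in 3 of the 7 promoters. They belonged to Upk3b, Lrrn4 and the first start of Gpm6a. Of all 32851 promoters of this length, 14.7% hold these letters. The promoter at the first start of Gpm6a, 54779184 to 54779483, lies outside the span of the gene given above. That at its second start, 54954478 to 54954777, held no match. GTGGGAG, a core of WT1 motifs, was in 0 of the 7 promoters and in 9.73% of all promoters. AGATAA, which GATA factors bind, was in 0 of the 7 and in 11.2% of all. The 3 motifs were picked after the promoter letters had been seen, and a match is a description of the letters. The stretches around the 3 TEAD matches are given on the strand of the gene, with the match in capitals (CATTCC is GGAATG on the other strand).
Upk3b, chr5:136038246-136038300, plus strand, match 241 bases before the start: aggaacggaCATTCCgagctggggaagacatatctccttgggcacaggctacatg
Lrrn4, chr2:132881013-132881098, minus strand, match 196 bases before the start: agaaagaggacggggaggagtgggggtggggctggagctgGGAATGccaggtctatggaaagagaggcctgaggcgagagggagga
Gpm6a, chr8:54779269-54779354, plus strand, match 125 bases before the first of its 2 starts: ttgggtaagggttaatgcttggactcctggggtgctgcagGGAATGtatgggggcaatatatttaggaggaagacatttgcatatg

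Total counts per library were between 15950717 and 21725076, so 1 count was worth about 0.06 CPM (counts scaled to a common library size by TMM, edgeR's correction for library composition). A level of 0 in a library allows up to 3 counts, which is between 0.13 and 0.195 CPM, and this limit covers counting error only. Adam17, the deleted gene, was at 70.9, 48.7 and 43.6 CPM in the A17fl/fl + NS libraries, at 48.1, 53.2 and 48.4 in A17fl/fl + DOX, at 35.3, 34.9 and 34.2 in A17α-MHCKO + NS and at 27.9, 36.8 and 32.2 in A17α-MHCKO + DOX, so all 6 knockout libraries lay below all 6 others. The A17fl/fl + NS replicate 1 library stood apart from the other 11. It lay at -120 on the first principal component of log2 CPM, against -12.9 to 28.4 for the others.

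The genes were low in this tissue. On the scale that divides by gene length (FPKM, the deposited values), the mean level over the 12 libraries ran from 4.23 for Gpm6a, 4.06 for Upk3b and 3.27 for Msln, through 1.41 for Krt19, 1.38 for Upk1b, 1.32 for Tbx18 and 1.13 for Lrrn4, to 0.525 for Wt1, 0.159 for Bnc1 and 0.0707 for Muc16. Neighbours in this order differed by less than the larger SD of the pair over the 12 libraries, apart from Wt1 (SD 0.188) and Bnc1 (SD 0.216). The SD exceeded the mean for 7 of the 10 genes, among them Msln at 4.04, and was 0.312 for Tbx18.

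Msln, a common marker of mesothelium, was at 0, 25.0 and 0.0626 CPM in A17fl/fl + NS, at 7.29, 2.77 and 4.41 in A17fl/fl + DOX, at 2.04, 17.1 and 16.6 in A17α-MHCKO + NS, and at 0.315, 3.57 and 1.64 in A17α-MHCKO + DOX. Its highest and its lowest library were both saline-treated A17fl/fl hearts, 418 counts against 0 counts, at least 144-fold apart when the 0 is set to 3 counts. Each group overlapped with the groups it was compared with.

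Upk3b was at 0, 64.6 and 0.188 CPM in A17fl/fl + NS, at 15.7, 6.34 and 7.52 in A17fl/fl + DOX, at 2.22, 36.9 and 23.4 in A17α-MHCKO + NS, and at 0.189, 7.34 and 3.58 in A17α-MHCKO + DOX. The same A17fl/fl + NS replicate 2 library was the highest, with 1080 counts, and replicate 1 of that group, with 0 counts, the lowest, at least 373-fold apart. Upk1b, the other uroplakin gene described here, was at 0.173, 9.81 and 0 CPM in A17fl/fl + NS, at 2.20, 0.985 and 1.86 in A17fl/fl + DOX, at 0.432, 5.31 and 5.17 in A17α-MHCKO + NS, and at 0, 1.49 and 1.09 in A17α-MHCKO + DOX. It was high in the same 3 libraries as Upk3b and at or below 0.173 CPM in the 3 in which Upk3b had at most 3 counts.

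Lrrn4 was at 0.115, 16.6 and 0.188 CPM in A17fl/fl + NS, at 5.28, 1.05 and 1.93 in A17fl/fl + DOX, at 0.803, 10.8 and 9.59 in A17α-MHCKO + NS, and at 0, 1.88 and 0.668 in A17α-MHCKO + DOX. Muc16 was at 0, 9.04 and 0 CPM in A17fl/fl + NS, at 1.38, 0.431 and 0.746 in A17fl/fl + DOX, at 0.494, 4.79 and 3.49 in A17α-MHCKO + NS, and at 0.189, 1.23 and 0.304 in A17α-MHCKO + DOX. Bnc1, the rarest by count with at most 56 counts in a library, was at 0, 3.35 and 0 CPM in A17fl/fl + NS, at 0.755, 0.308 and 0.497 in A17fl/fl + DOX, at 0.123, 1.77 and 1.16 in A17α-MHCKO + NS, and at 0.126, 0.585 and 0 in A17α-MHCKO + DOX. For each of these 3 genes the same 3 libraries were high, A17fl/fl + NS replicate 2 and A17α-MHCKO + NS replicates 2 and 3, and all groups overlapped with their controls.

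Krt19 was at 7.21, 10.5 and 0.439 CPM in A17fl/fl + NS, at 3.52, 1.85 and 1.18 in A17fl/fl + DOX, at 0.926, 6.82 and 4.07 in A17α-MHCKO + NS, and at 0, 1.23 and 0.607 in A17α-MHCKO + DOX. It broke from the 6 genes above in 1 library: A17fl/fl + NS replicate 1 held 125 counts of Krt19 and 0 of Msln and Upk3b. Gpm6a was at 0.462, 32.0 and 3.82 CPM in A17fl/fl + NS, at 13.2, 9.23 and 7.27 in A17fl/fl + DOX, at 12.2, 24.6 and 27.4 in A17α-MHCKO + NS, and at 11.2, 7.99 and 11.7 in A17α-MHCKO + DOX. It had the same 3 high libraries, but stayed at 11.2 CPM in A17α-MHCKO + DOX replicate 1, where Upk3b had 3 counts.

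Wt1 was at 8.89, 5.62 and 4.89 CPM in A17fl/fl + NS, at 6.23, 6.96 and 2.92 in A17fl/fl + DOX, at 8.40, 5.27 and 5.87 in A17α-MHCKO + NS, and at 3.27, 7.02 and 2.91 in A17α-MHCKO + DOX. Tbx18 was at 8.95, 6.28 and 7.39 CPM in A17fl/fl + NS, at 7.04, 6.28 and 6.28 in A17fl/fl + DOX, at 4.69, 5.96 and 6.80 in A17α-MHCKO + NS, and at 3.34, 6.11 and 6.80 in A17α-MHCKO + DOX. Both transcription factors were highest in A17fl/fl + NS replicate 1, where Msln, Upk3b, Muc16 and Bnc1 had no count. Their highest and lowest libraries were 3.05-fold apart for Wt1 and 2.68-fold for Tbx18, against 69.2-fold for Gpm6a.

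**Figure D1:**
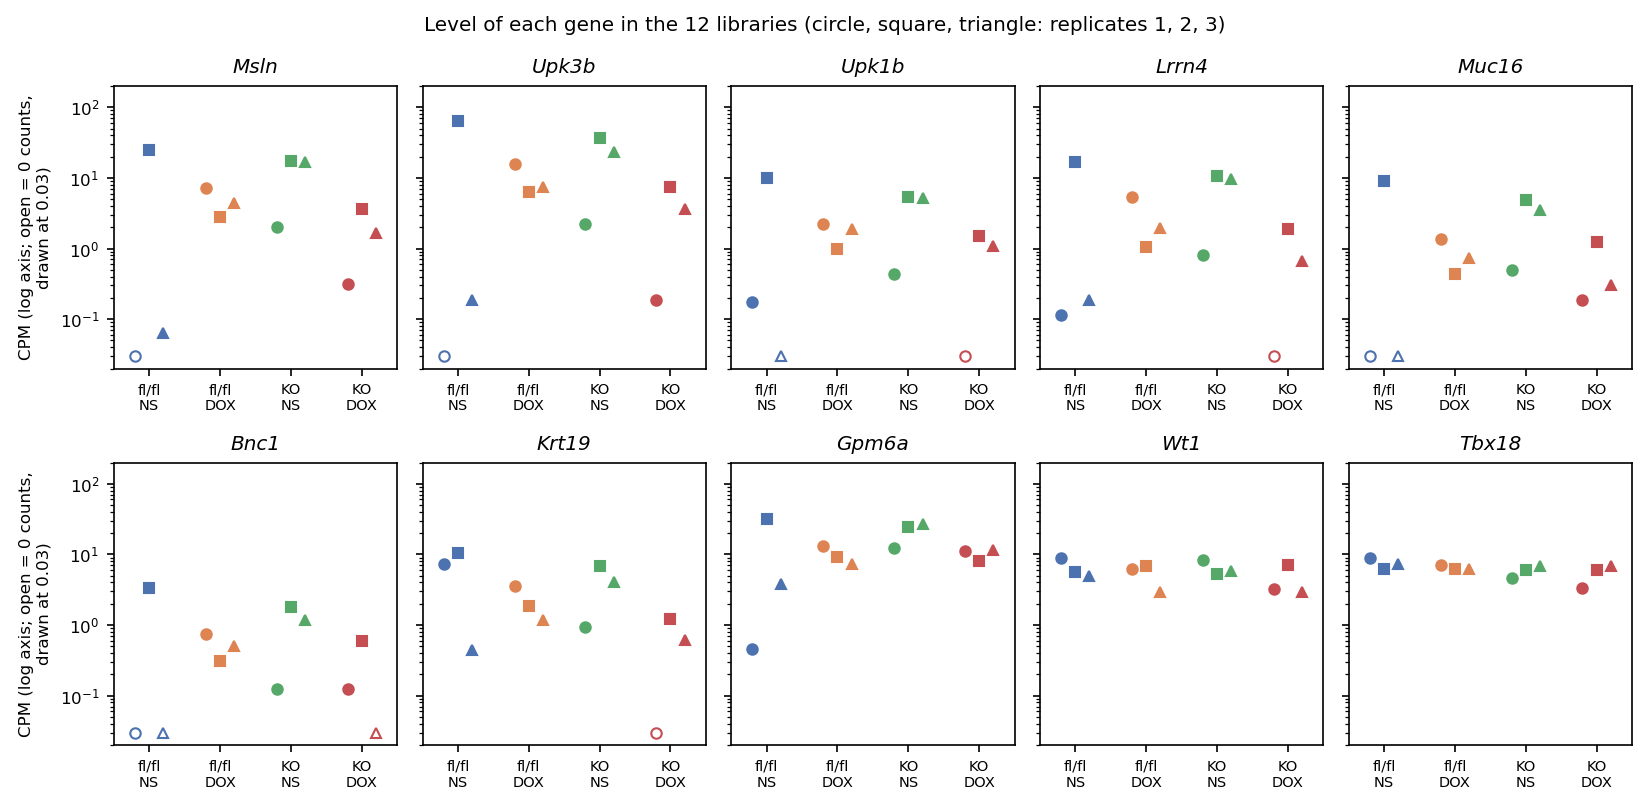
Level of each of the 10 genes in every library, in TMM-scaled CPM on a log axis shared by all panels, with the 4 groups along the horizontal axis (KO, A17α-MHCKO) and 1 point a library; open points are libraries with 0 counts. In the first 6 panels the 3 A17fl/fl + NS points span from at most 3 counts to the highest point of the panel, while the Wt1 and Tbx18 points stay between 2.91 and 8.95 CPM.

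The 10 genes did not move as 1 set. Msln, Upk3b, Upk1b, Lrrn4, Muc16 and Bnc1 rose and fell together across the 12 libraries: the 15 rank correlations (Spearman) among these 6 genes ran from 0.89 to 0.99, with a median of 0.96. Over the 9 libraries that remain without those in which the 6 genes summed to under 1 CPM, they ran from 0.92 to 1, with a median of 0.97. The 6 genes were grouped after their values were seen, and the libraries share the 4 groups and the scaling, so these values describe the libraries and carry no p.

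The other 4 genes followed the 6 to unequal degrees. The median rank correlation with the 6 genes was 0.75 for Gpm6a and 0.61 for Krt19, but -0.03 for Wt1 and -0.21 for Tbx18, over 12 libraries. Over the 9 libraries it was 0.93 for Krt19, 0.67 for Gpm6a, -0.20 for Wt1 and 0.08 for Tbx18. Wt1 and Tbx18, the 2 transcription factors, stayed within a 3.05-fold range in libraries in which the surface genes of mesothelium ranged from 0 to 1080 counts.

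Summed over the 6 genes, the level was 0.289, 128 and 0.439 CPM in A17fl/fl + NS, 32.6, 11.9 and 16.97 CPM in A17fl/fl + DOX, 6.11, 76.7 and 59.3 CPM in A17α-MHCKO + NS, and 0.818, 16.1 and 7.29 CPM in A17α-MHCKO + DOX. In counts, the lowest library held 5 and the highest 2147. The A17fl/fl + NS group alone covered this whole range, 445-fold, against 2.74-fold in A17fl/fl + DOX, 12.6-fold in A17α-MHCKO + NS and 19.7-fold in A17α-MHCKO + DOX. The 3 libraries under 1 CPM belonged to 2 groups, and in bulk tissue fewer cells of a type and less RNA per cell cannot be told apart.

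The make-up of this sum could be read in the 9 libraries with at least 50 counts for the 6 genes, in which the sum ran from 6.11 to 128 CPM, and it changed less than the sum. Upk3b made up between 36.4% and 53.4% of the counts, Msln between 19.5% and 33.3%, and Lrrn4 between 8.81% and 16.2%. Upk1b made up between 6.76% and 15%, Muc16 between 3.63% and 8.08%, and Bnc1 between 0% and 3.63%. In the deepest of these, A17fl/fl + NS replicate 2, the share of Upk3b was 50.3% (95% exact binomial interval 48.2% to 52.4%), and in A17α-MHCKO + NS replicate 2 it was 48.1% (45.8% to 50.5%). In A17α-MHCKO + NS replicate 3 it was 39.4% (36.4% to 42.4%), outside both intervals, with Msln at 27.9% (25.2% to 30.8%) against 19.5% (17.8% to 21.2%) in A17fl/fl + NS replicate 2. The intervals cover counting error only.

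**Figure D2:**
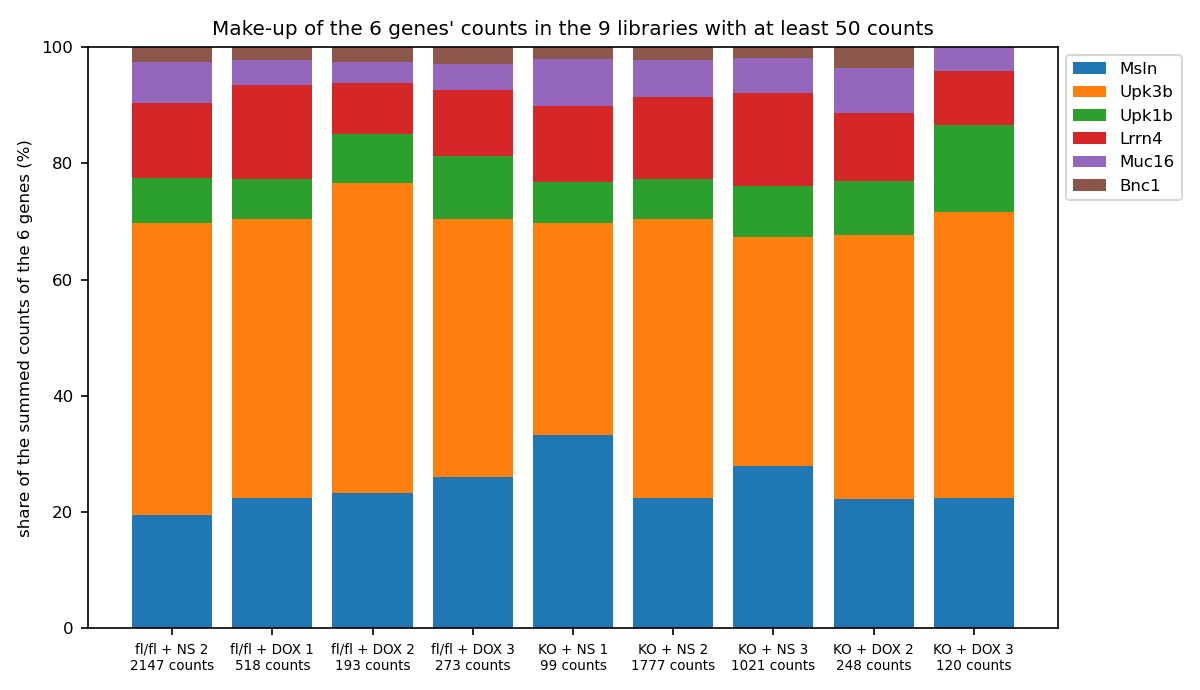
Share of each of 6 genes in their summed counts (percent, vertical axis) in the 9 libraries with at least 50 such counts, whose totals stand under the bars (KO, A17α-MHCKO). Upk3b and Msln together take most of every bar although the totals run from 99 to 2147 counts.

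Doxorubicin in A17fl/fl hearts was compared with saline first. All 10 genes had a negative log2 change, from -1.81 for Muc16 to -0.21 for Tbx18, with a median of -1.01, against -0.04 over all 16101 genes, of which 55.5% were negative. The standard errors ran from 0.26 to 1.63, as large as the changes or larger for 8 of the 10. None of the 10 met the study's limits, that is a log2 change above 1 in size with p under 0.05 before adjustment in a gene whose mean FPKM exceeds 1 in a group. Muc16, Bnc1 and Wt1 exceeded a mean FPKM of 1 in none of the 4 groups and so could not meet the limits in any comparison. The limits were met by 2.82% of all genes in either direction. None of the 10 had groups without overlap, against 13.3% of all genes. For Upk3b, at -1.13 (SE 1.63), 2 saline libraries lay below every doxorubicin library and the other above all 3.

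The direction turned when 1 library was left out. Without A17fl/fl + NS replicate 2, 7 of the 10 genes had a positive log2 change in A17fl/fl, and the median became 4.13 in the fit. Muc16 and Bnc1 then had no count left in the saline group, and with the saline level of these 2 genes at 3 counts per library the median was 2.23, with Muc16 at least 4.73-fold and Bnc1 at least 2.88-fold higher after doxorubicin. Krt19, Wt1 and Tbx18 stayed negative without it, at -0.81, -0.36 and -0.32.

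In A17α-MHCKO hearts all 10 genes again had a negative log2 change after doxorubicin, from -3.06 (SE 1.63) for Lrrn4 to -0.10 (SE 0.26) for Tbx18, with a median of -2.23 against 0.00 over all genes, of which 49.5% were negative. Krt19, at -2.68 (SE 1.14), met the study's limits, which 0.658% of all genes met in either direction; since the genes were chosen with their levels known, nothing is read from that count. Gpm6a, at -1.05 (SE 0.92), was the only one of the 10 whose libraries did not overlap, 7.99 to 11.7 CPM after doxorubicin and 12.2 to 27.4 after saline, against 16.9% of all genes. The median stayed negative whichever library was left out, between -3.50 and -1.75. For the summed level of the 6 genes, the saline libraries were at 6.11, 76.7 and 59.3 CPM and the highest doxorubicin library at 16.1, so saline replicate 1 lay within the range of the doxorubicin group. In the same comparison all 5 atrial genes had a negative log2 change (median -1.70, 3 of 5 without overlap), as had all 5 adipocyte genes tested (median -0.85, 0 without overlap). In A17fl/fl hearts 4 of 5 atrial genes were negative (median -0.24) and all 5 adipocyte genes positive (median 0.84). Their part in the change of the 10 genes was not tested.

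**Figure D3:**
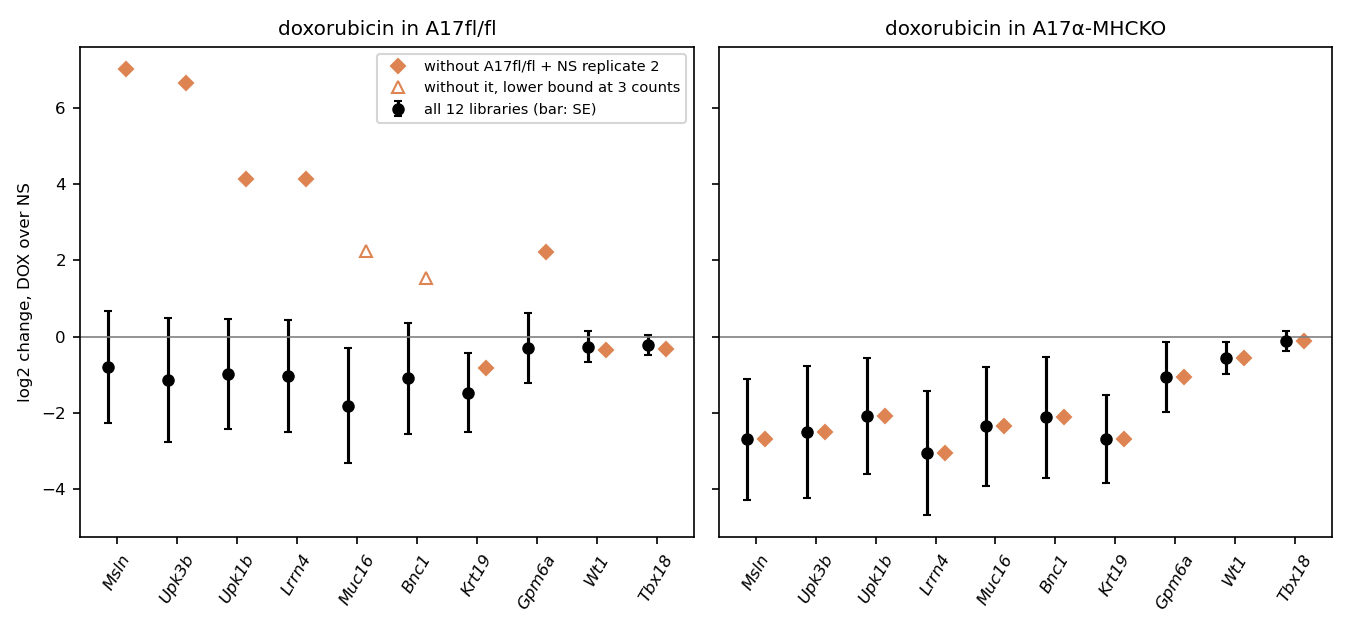
Fitted log2 change after doxorubicin (vertical axis) of each of the 10 genes in A17fl/fl (left) and A17α-MHCKO (right) hearts, from all 12 libraries (black, bars are standard errors) and without A17fl/fl + NS replicate 2 (orange; open triangles are lower bounds at 3 counts). In A17fl/fl hearts 7 of the 10 genes move from below to above 0 when that library is left out.

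Between genotypes, the saline groups differed by a median log2 change of -0.01 over the 10 genes, with 5 positive and 5 negative, against -0.03 over all genes, of which 54.5% were negative. The values ran from -0.61 (SE 0.99) for Krt19 to 0.83 (SE 0.91) for Gpm6a, and no gene was without overlap, against 10.9% of all genes, or met the study's limits, against 2.99%. Without A17fl/fl + NS replicate 2 the median became 5.37, or 3.68 with Muc16 and Bnc1 at 3 counts per library. After doxorubicin the knockout median was -1.04 against 0.01 over all genes, with 9 of 10 negative against 48.9% of all genes, and between -2.02 and -0.61 with single libraries left out. None of the 10 was without overlap there, against 14.1% of all genes, or met the limits, against 0.205%, which 6 of the 10 could not meet there for their low FPKM.

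The interaction, the doxorubicin change in A17α-MHCKO minus that in A17fl/fl, had a median of -1.06 over the 10 genes, or -6.69 without A17fl/fl + NS replicate 2 (-4.11 with Muc16 and Bnc1 at 3 counts per library), and its standard errors ran from 0.37 for Tbx18 to 2.32 for Upk3b. For each of the 10 genes it was smaller than its standard error, and none met the study's limits, against 2.13% of all genes. Averaged over both genotypes, the doxorubicin change had a median of -1.67, and 0.80 without A17fl/fl + NS replicate 2, or 0.24 with Muc16 and Bnc1 at 3 counts. Krt19, at -2.08 (SE 0.77), met the limits in this average, which 0.814% of all genes met. Since the genes were chosen with their levels known, nothing is read from that call either. These comparisons share groups and are not independent of each other.

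A second list of 22 genes of mesothelium that holds none of the 10 was tested, written from general knowledge with results of these data in view. Of these, 19 passed the filter, while Calb2, Cdh1 and Itln1 did not. After doxorubicin in A17fl/fl hearts 5 of the 19 fell by the study's limits, against 2.22% of all genes: Pdpn (podoplanin, a surface mucin), Aldh1a2 (which makes retinoic acid), Slpi (a protease inhibitor), Prg4 (lubricin) and Has1 (a hyaluronan synthase). In A17α-MHCKO hearts 0 of 19 met them, against 0.658% of all genes in either direction. Without A17fl/fl + NS replicate 2 it was 4, for which no share of all genes is given here. By edgeR's quasi-likelihood test with Benjamini-Hochberg adjustment, 0 of 19 had an adjusted p under 0.05 in either genotype. The same held for 0 of all 16101 genes in each genotype, so nothing is read from that count. At an unadjusted p under 0.05 in edgeR there were 7 and 1 of the 19, against 10.7% and 6.42% of all genes. DESeq2 gave an adjusted p for all but 4 and 7 of the 19, with 1 (Has1) and 0 under 0.05. The shares of all genes under DESeq2 are not given here.

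Of these 5 calls, 4 rested on 1 library. Slpi was at 164 CPM in A17fl/fl + NS replicate 1 and ran from 0.373 to 1.91 elsewhere, Prg4 at 331 against 12.3 to 28.7, Aldh1a2 at 109 against 3.40 to 13.9, and Pdpn at 78.1 against 3.57 to 8.42. That is the library without Msln and Upk3b. It also held 2352 CPM of the 5 neutrophil genes (S100a8, S100a9, Mmp9, Csf3r, Il1b), against 9.82 to 63.3 in the others, and Myh6, a cardiomyocyte myosin, at 4535 CPM, its lowest. The 5 fibroblast genes (Col1a1, Col1a2, Pdgfra, Dcn, Tcf21) summed to 4683 CPM there, against 1092 to 1841 in the others. Col1a1 at 2262, Col1a2 at 1335 and Pdgfra at 118 CPM were highest there, Dcn was highest elsewhere, and Tcf21 was lowest there, at 9.35. Without that library 2 of the 19 met the limits, Has1 among them, and Pdpn, Aldh1a2, Slpi and Prg4 did not, with Prg4 at a log2 change of 0.32. For Pdpn the other A17fl/fl + NS libraries, at 6.01 and 8.08 CPM, also lay above the A17fl/fl + DOX libraries, at 3.57 to 5.72. Groups without overlap in this comparison were found for 4 of the 19, Pdpn among them, and for 13.3% of all genes. The part of neutrophils, fibroblasts or other cells in these levels was not tested.

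Between the saline groups, 5 of the 19 (Pdpn, Aldh1a2, Slpi, Prg4 and Has1) were lower in A17α-MHCKO by the limits, against 2.32% of all genes, and 2 without A17fl/fl + NS replicate 1, when Pdpn stood at a log2 change of 0.06. After doxorubicin 0 of 19 met the limits between genotypes, with 0 at an unadjusted p under 0.05 in edgeR, against 2.7% of all genes, and 0 at an adjusted p under 0.05 in DESeq2, which gave none for 4. For the interaction 3 did, all positive (Pdpn, Slpi and Prg4), against 1.47% of all genes, 0 without that library and 7 without A17fl/fl + NS replicate 2. In the average over both genotypes 4 were lower (Pdpn, Rspo1, Slpi and Has1), against 0.596% of all genes.

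Of the 19, Cldn15 and Has1 had the smallest p before adjustment for doxorubicin averaged over both genotypes. Cldn15, a claudin of tight junctions, was at 13.3, 13.0 and 13.0 CPM in A17fl/fl + NS and at 10.9, 6.22 and 5.41 in A17fl/fl + DOX. It was at 12.5, 9.85 and 11.7 CPM in A17α-MHCKO + NS and at 5.22, 6.82 and 5.95 in A17α-MHCKO + DOX. In each genotype every doxorubicin library lay below every saline library, which held for 1 of the 19 genes and for 0.64% of all genes.

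The log2 change of Cldn15 was -0.80 (SE 0.24) in A17fl/fl and -0.92 (SE 0.24) in A17α-MHCKO hearts, under the limit of 1, with adjusted p = 0.358 and 0.666 in edgeR. Averaged over both genotypes it was -0.86 (SE 0.17), with adjusted p = 0.176 in edgeR and 0.00151 in DESeq2. Over 18 alternatives its adjusted p ran from 0.00151 to 0.529, DESeq2 being the 1 under 0.05, while the log2 change stayed between -1.04 and -0.76. An exact two-sided permutation test of its log2 CPM within genotypes gave p = 0.005, the smallest that its 400 arrangements can give, in a family of 19 genes tested in this way. It was singled out after its values were seen. In the 3 libraries with under 1 CPM of the 6 genes Cldn15 was at 13.3 and 13.0 CPM in A17fl/fl + NS replicates 1 and 3, the highest levels of the 12, and at 5.22 CPM in A17α-MHCKO + DOX replicate 1, the lowest.

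Has1 was at 4.79, 3.17 and 1.38 CPM in A17fl/fl + NS, at 0.566, 0.554 and 0.249 in A17fl/fl + DOX, at 0.309, 0.907 and 1.16 in A17α-MHCKO + NS, and at 0.378, 0.390 and 0.182 in A17α-MHCKO + DOX. The A17fl/fl groups did not overlap, while in A17α-MHCKO saline replicate 1 lay within the doxorubicin range. Its log2 change averaged over genotypes was -2.04 (SE 0.43), with adjusted p = 0.207 in edgeR and from 0.00603 (DESeq2, the 1 under 0.05) to 0.534 over 17 alternatives, and the exact permutation test within genotypes gave p = 0.015. The levels of Has1 rest on 3 to 83 counts a library.

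**Figure D4:**
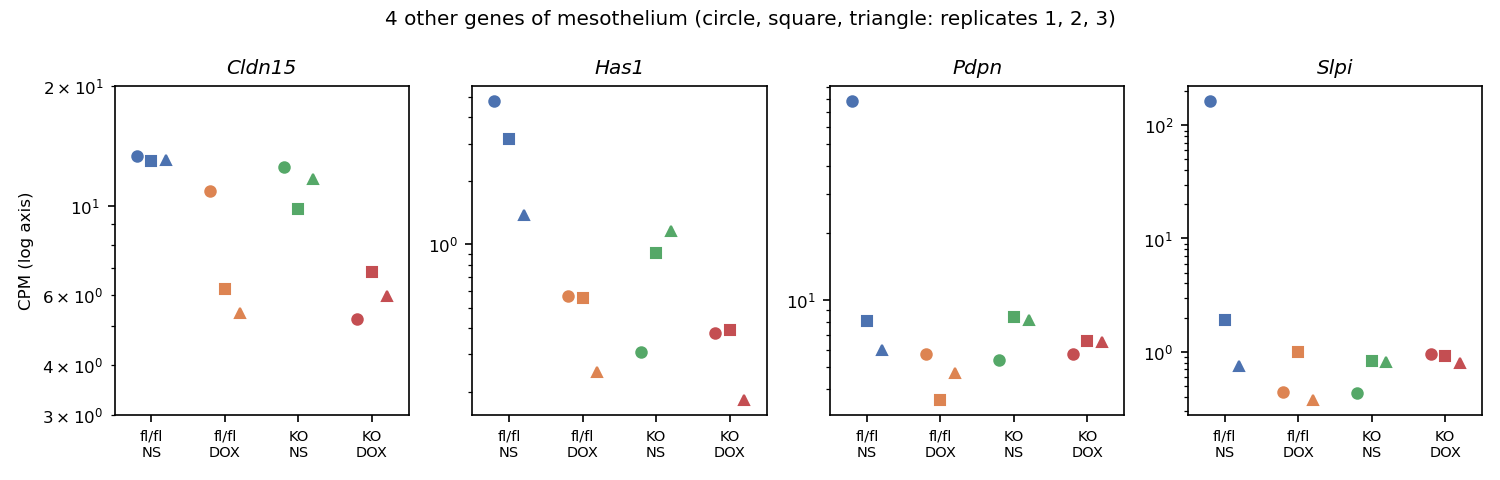
Level of 4 genes of the second mesothelial list in every library, in TMM-scaled CPM on log axes that differ between panels, with groups along the horizontal axis (KO, A17α-MHCKO) and 1 point a library. All Cldn15 points after doxorubicin lie below the saline points of the same genotype, and the Pdpn and Slpi panels each hold 1 high point, A17fl/fl + NS replicate 1.

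Some genes of the second list shared their highest library with the 6 genes, and others did not. Krt7 and Krt8, keratins of simple epithelia, ran from 0 to 6.88 CPM and from 0.0626 to 9.27 CPM, Krt18 from 0.439 to 6.46, and Nkain4 from 0.173 to 10.1, each with its highest library in A17fl/fl + NS replicate 2. Calb2, Pdpn, Aldh1a2, Slpi, Prg4, Cldn15, Anxa8 and Has1 were highest in A17fl/fl + NS replicate 1. Scx, Dmkn and Ezr were highest in libraries of other groups, and Scx was lowest in A17fl/fl + NS replicate 2, at 6.58 CPM. Over the 9 libraries with the 6 genes at 1 CPM or more, the summed level of the 22 genes had a rank correlation of 0.93 with that of the 6. Over all 12 it was 0.51. Ezr (mean 59.5 CPM) and Prg4 (mean 43.0 CPM) were the largest parts of that sum.

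Markers of other tissues moved with the 6 genes too. The summed level of 5 atrial genes (Sln, Myl7, Myl4, Nppa, Bmp10) ran from 332 to 8361 CPM. Its rank correlation with the 6 genes was 0.78 over 12 libraries and 0.63 over the 9. Nppa was the largest part of this sum, with a mean of 2558 CPM against 512 for Myl4, the next. In the lowest library, A17fl/fl + NS replicate 3, Nppa alone was at 331 CPM. Sln, the atrial regulator of the calcium pump, had 0 counts in A17fl/fl + NS replicates 1 and 3, which held 5 and 7 counts of the 6 genes, and 392 CPM in A17fl/fl + NS replicate 2. Myl7, the atrial myosin light chain, was at 0 and 0.0626 CPM in the first 2 and at 1019 in the third.

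The pairing was not complete. A17α-MHCKO + NS replicate 1 had 212 CPM of Sln and 6.11 CPM of the 6 genes, and A17α-MHCKO + DOX replicate 1 had 63.8 CPM of Sln and 0.818 of the 6 genes. Adipocyte genes, 6 in all, ran from 0.752 to 104 CPM with a rank correlation of 0.73, or 0.60 over the 9 libraries. Genes of Schwann cells, 3 in all, ran from 2.60 to 12.6 CPM with 0.76, or 0.43 over the 9, and those of neutrophils had -0.70, or -0.30.

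Lists for cells of the ventricle wall gave rank correlations of 0.04 for cardiomyocytes, 0.01 for endothelium, -0.08 for mural cells and 0.36 for fibroblasts over 12 libraries, and -0.33, -0.45, -0.52 and 0.63 over the 9, where fibroblasts equalled the atrial list. The list for thymus and lymphocytes had 0.19, and that for lung epithelium 0.13. A17fl/fl + NS replicate 2, the library highest for 8 of the 10 genes, also held 121 CPM of Scgb1a1, a secretory protein of airway cells, which was between 0 and 0.247 CPM in the other 11, while the surfactant genes Sftpc and Sftpa1 were at 0.12 and 2.15 CPM there. Sftpa1 had 36 counts in that library, 7 in A17α-MHCKO + NS replicate 3 and 0 in the other 10. The part of these other cells in the levels of the 10 genes was not tested.

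**Figure D5:**
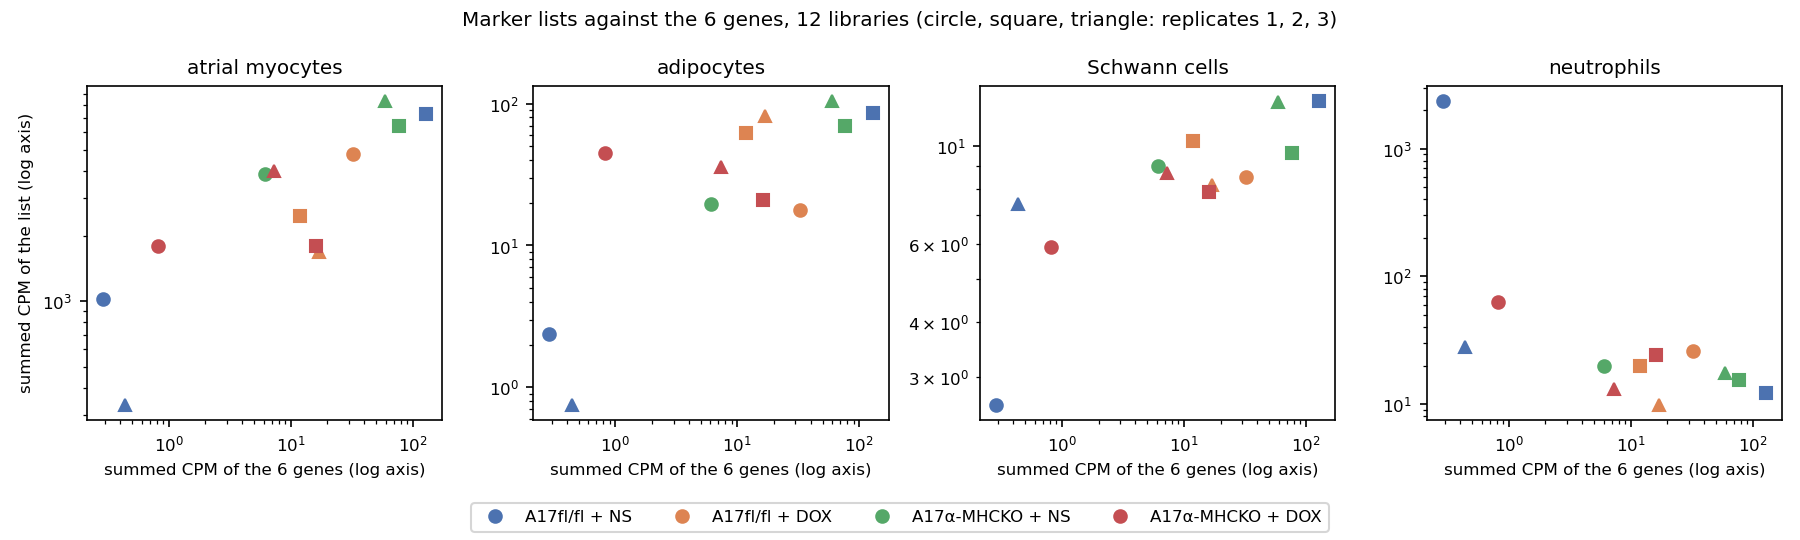
Summed CPM of 4 marker lists (vertical axes, log) against the summed CPM of Msln, Upk3b, Upk1b, Lrrn4, Muc16 and Bnc1 (horizontal axes, log), 1 point a library, coloured by group. The 2 lowest atrial and adipocyte points are A17fl/fl + NS replicates 1 and 3, and the single high neutrophil point, at 2352 CPM, is A17fl/fl + NS replicate 1.

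Among 14451 other genes with a mean of at least 1 CPM, the 10 whose log2 CPM was most like the mean standardized profile of the 10 genes over the 12 libraries had Pearson correlations from 0.92 to 0.97. They were Creb3l2 (0.97), Chst4, Krt8, Krt7, Cyp2s1, Radil, Slc39a8, St6gal1, Adgrg6 and Rfx2. Creb3l2, a membrane-bound transcription factor of the secretory pathway, was far more abundant than the 10 genes, from 35.4 CPM in A17α-MHCKO + DOX replicate 1 to 104 CPM in A17fl/fl + NS replicate 2. Chst4, a sulfotransferase, ran from 0 to 5.45 CPM. The profile's own genes had from 0.99 for Lrrn4 down to 0.65 for Gpm6a, 0.25 for Wt1 and 0.24 for Tbx18. Each of them is part of the mean it was compared with, which raises these values, so they are no yardstick for the other genes.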

How the data were processed

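The 10 genes and all lists were chosen with earlier results of these data known. Per the labels and the study's methods, stranded mRNA libraries were sequenced in pairs and StringTie gave a count per gene, and the submitters' notes name GRCm39, HISAT2, SAMtools 1.3.1 and CASAVA 1.8. The authors deposited raw counts and FPKM of 53465 genes for 12 libraries, 15950717 to 21725076 counts each. The strand setting is not given in the sources used here, so antisense and overlapping genes can share reads. Counts were tested in R 4.3.3 with edgeR 4.0.16 (filterByExpr, 16101 genes, TMM, glmQLFit with 1 mean per group, glmQLFTest, Benjamini-Hochberg adjustment). Standard errors are the log2 change over the square root of F and approximate. FPKM served for the study's limits. The contrast over both genotypes was added after the data were seen. Named genes were the 10 genes, Adam17, listed genes past the limits or defining a list, and the 10 genes most like the mean profile by Pearson correlation. Alternatives were DESeq2 1.42.0, other scalings and filters, the groups compared alone, a replicate block and leaving out each library. The test was also run on simulated counts that held no outlying library. That run does not show how the test behaves with libraries as unlike as those of A17fl/fl + NS. Duplicate libraries were not found.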

Additional observations from a re-analysis of the deposited data

How the results depend on the processing

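The median log2 change of the 10 genes had a value in 6 comparisons under DESeq2, RLE and upper-quartile scaling, no filter, the replicate block and each library left out; under at least 10 counts in every library, and for most comparisons with the 2 groups alone, not all 10 genes were tested and no value was given. It moved by less than the spread between replicates, 1.84 on the log2 scale, in all of these but 4, which are those without A17fl/fl + NS replicate 2. The median can change sign within so wide a spread, as it did with the replicate block described below. With 1 library left out it ran from -1.58 to 4.13 for doxorubicin in A17fl/fl, from -3.50 to -1.75 for doxorubicin in A17α-MHCKO, from -0.42 to 5.37 for the knockout after NS, from -2.02 to -0.61 for the knockout after DOX, from -6.69 to -0.48 for the interaction and from -2.24 to 0.80 for doxorubicin in both genotypes.

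The number of the 19 other mesothelial genes past the study's limits moved by more than 1.5 times as follows. For doxorubicin in A17fl/fl it went from 5 to 2 with DESeq2, to 3 with at least 10 counts in every library and to 3 with the 2 groups alone. For doxorubicin in A17α-MHCKO it went from 0 to 3 with the 2 groups alone. For the knockout after NS it went from 5 to 2 with DESeq2 and to 3 with at least 10 counts in every library or with the 2 groups alone. For the interaction it went from 3 to 0 with DESeq2, and for doxorubicin in both genotypes from 4 to 2 with at least 10 counts. The stricter filter tests fewer genes; the cause of the others was not tested. With 1 library left out the counts ran from 2 to 7, from 0 to 4, from 2 to 8, from 0 to 0, from 0 to 7 and from 2 to 7 in the order of the comparisons above. The lowest came without A17fl/fl + NS replicate 1, except for doxorubicin in both genotypes (A17α-MHCKO + NS replicate 2) and doxorubicin in A17α-MHCKO, where 0 is the count itself. The highest came without A17fl/fl + NS replicate 2 or 3. The interaction went to 1 without any of 6 further libraries (A17fl/fl + DOX replicates 1 and 2, A17α-MHCKO + NS replicates 1, 2 and 3, A17α-MHCKO + DOX replicate 3), and the knockout after NS to 3 without A17α-MHCKO + NS replicate 1. With 1 library left out, the log2 change of Prg4 after doxorubicin in A17fl/fl ran from -3.13 to 0.32, and that of Pdpn for the knockout after NS from -2.55 to 0.058, both turning positive without A17fl/fl + NS replicate 1.

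Groups share replicate numbers, but same-numbered libraries did not deviate together: their correlations ran from -0.10 to 0.22 over 18 pairs, 3 of them over 0.1, and 6 of 12 libraries correlated best with their own number, so the numbers only name the libraries. With the replicate number as a block, 3 other mesothelial genes in place of 5 met the limits for the knockout after NS, 0 in place of 3 for the interaction and 2 in place of 4 for doxorubicin in both genotypes. The block turned the median of the 10 genes for doxorubicin in A17fl/fl from -1.01 to 0.39 and that for the knockout after NS from -0.01 to 0.96, while doxorubicin in A17α-MHCKO gave -2.50. Levels of 0 to 3 counts limit what can be said of Bnc1, Muc16 and Has1 in single libraries.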
